A study of Mus musculus with 10 samples.

Results

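Genes of autophagy and of the lysosome were followed in livers of lung tumour-bearing mice that did or did not develop cachexia. The 44 members were chosen by name and role, and all 44 were among the 43629 genes of the count table. They cover 9 steps, from the kinases that start an autophagosome to the enzymes of the lysosomal lumen. The livers came from adult male mice of a genetically engineered lung cancer model (Lkb1 flox/flox, backcrossed to FVB) in which intranasal adenovirus with a CMV-driven Cre recombinase had induced lung tumours. The 5 mice with cancer anorexia–cachexia syndrome (CACS) had a weight change of -30.6 ± 1.82% (SD, n = 5), and the 5 mice without it (NCACS) one of -8 ± 4.64% (SD, n = 5). Genotype, tumour induction and sex were shared by both groups, so the comparison is between tumour-bearing mice, and tumour-free livers were not analysed here. The labels number each mouse separately and give no fasting state, collection time or batch.

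Autophagy encloses part of the cytoplasm in a double membrane and delivers it to the lysosome, where acid hydrolases break it down. The ULK1 kinase complex starts the process, a lipid kinase complex built on Beclin 1 marks the membrane, and a pair of ubiquitin-like systems attaches LC3 and GABARAP proteins to the lipid phosphatidylethanolamine. In the liver it is known as a source of amino acids and fatty acids during fasting, and much of its control acts on the proteins, which RNA-seq does not measure.

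In the main test of cachectic against non-cachectic livers, the 44 members passed about as rarely as all genes did. Only Atg16l1 passed the test, and it was higher in CACS livers. This is 1 of 44 members (2.27%), where 3.80% of all 14143 tested genes passed in either direction (538 genes), 1.89% as higher and 1.92% as lower in CACS. The test was edgeR's quasi-likelihood test. With limma-voom 3.60% of genes and again only Atg16l1 passed, whereas DESeq2 called 1386 of 13859 genes (close to 1 in 10) and 7 of the 44 members (15.9%). All 44 members passed the filter on low counts, the least abundant being Atg10, with at least 101 counts in every liver. Total counts per liver lay between 31459179 and 40746178. The members' median log2 fold change, CACS minus NCACS, was -0.05, beside -0.01 over all genes tested, and 18 members had a positive and 26 a negative value. At an unadjusted p-value under 0.05 there were 8 members, 4 higher and 4 lower (18.2%, beside 21.6% of all genes). In 4 members (9.09%) the groups did not overlap, beside 7.07% of all genes. The share of members was thus below that of all genes for edgeR calls in either direction and for unadjusted p-values, and above it for groups without overlap and for DESeq2 calls.

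The log2 fold changes were measured closely. For 35 of the 44 members the whole 95% interval lay inside a 1.5-fold change in either direction, as it did for 6899 of the 14143 genes. The median half-width of the interval was 0.25 among the members. The 9 members whose intervals reached past 1.5-fold were Atg16l1, Bnip3, Ulk2, Lipa, Ctsz, Ctsl, Gabarapl1, Tfeb and Lamp2.

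**Figure D1:**
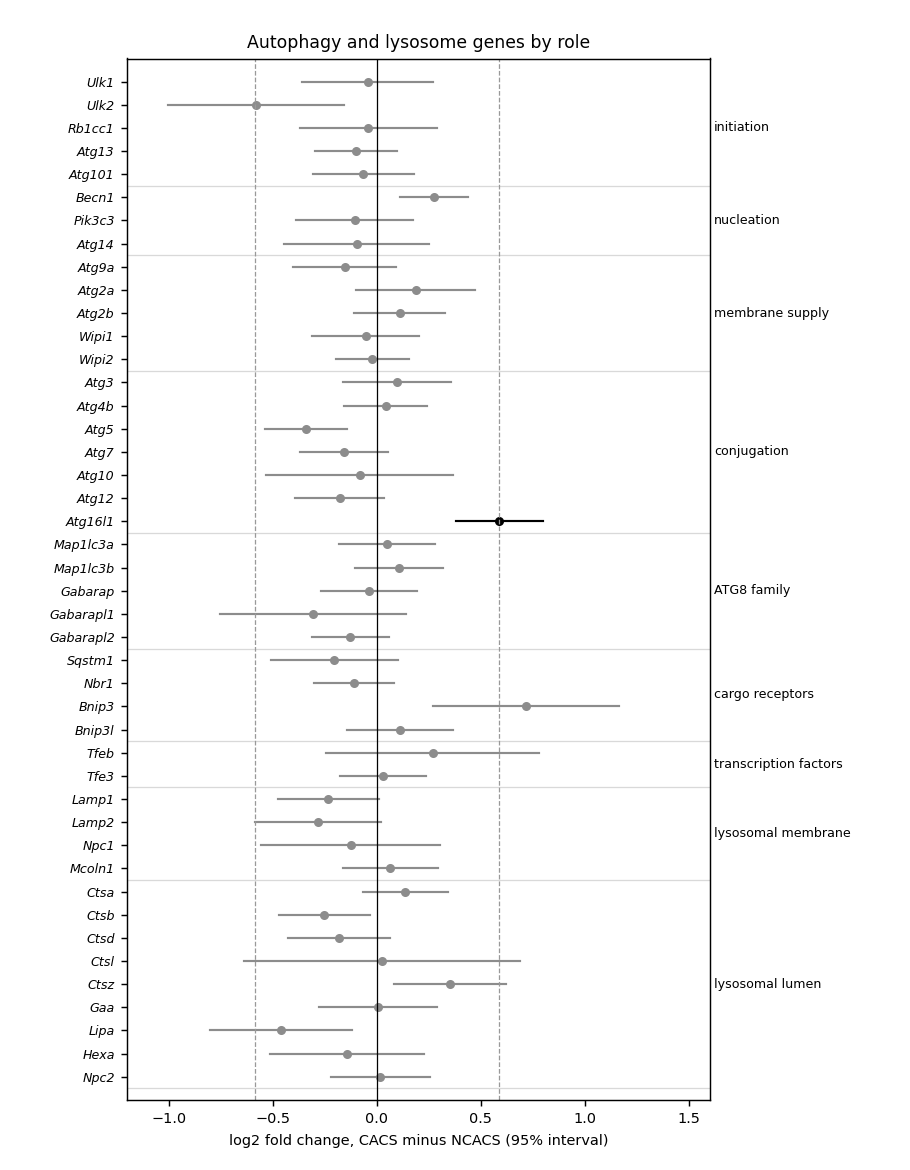
Log2 fold change of each of the 44 members (x axis, CACS minus NCACS, points) with its 95% interval (lines), ordered by role; dashed lines mark 1.5-fold. Atg16l1, in black, is the only member past the threshold, and 35 intervals lie wholly between the dashed lines.

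Levels were compared between members per kilobase of exon, on the scale of CPM per kb. Exon length was that of all annotated exons of a gene together, so the order depends on the annotation. By CPM alone Ctsb, at 732 in NCACS livers, and Lamp2, at 572, stood above Ctsz, at 244. Lamp1, a membrane glycoprotein that coats the inside of the lysosome, was the most abundant member, at 311 CPM per kb in NCACS and 265 in CACS livers. It was followed by the LC3 relative Gabarapl1 (240 and 194), the cathepsins Ctsz (169 and 216) and Ctsd (172 and 152) and Gabarap (141 and 137). The lowest were Tfeb (1.501 and 1.81), Atg10 (2.36 and 2.23) and Rb1cc1 (2.43 and 2.36). Of the 10 most abundant members, 6 were genes of the lysosomal membrane or lumen.

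**Figure D2:**
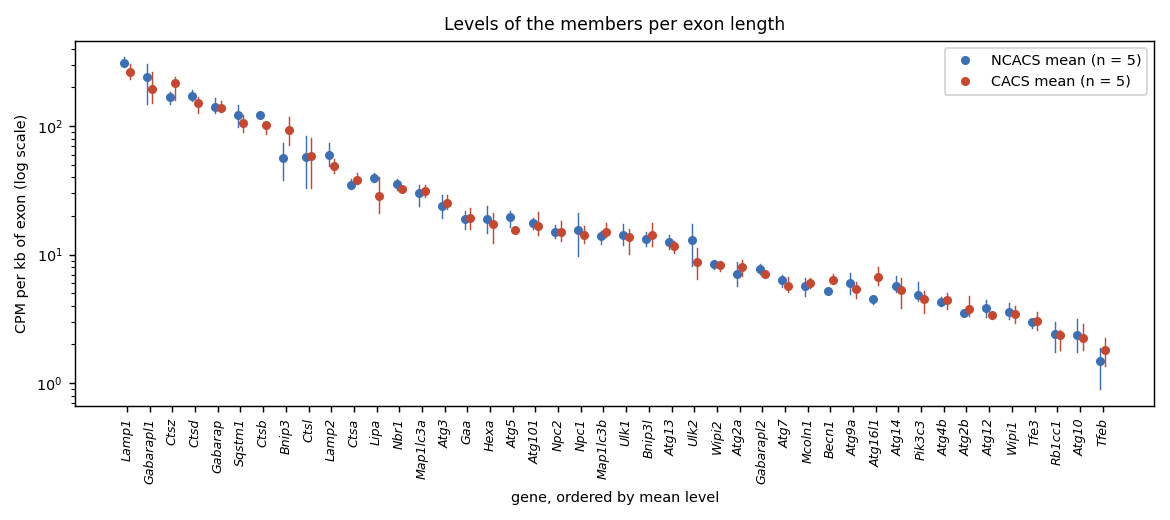
Mean level of each member in CPM per kb of exon (log y axis), NCACS in blue and CACS in red, with lines from the lowest to the highest liver of each group. Members run from Lamp1 to Tfeb, and for most of them the ranges of the groups overlap.

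Atg16l1 codes for the scaffold that brings the ATG12–ATG5 conjugate to the growing membrane, where LC3 is attached. The gene is at chr1:87755870-87792428 (GRCm38, forward strand). Its TMM-normalized level was 44.8, 42.8, 42.9, 46.1 and 39.7 CPM in NCACS mice 11 to 15, and 69.2, 56.2, 62.8, 60.4 and 76.7 CPM in CACS mice 16 to 20. Every CACS liver was above every NCACS liver, with mouse 20 highest and mouse 15 lowest. The group levels were 43.3 ± 2.43 and 65.1 ± 8.00 CPM (SD, n = 5 each), which differed by 0.59 on the log2 scale (standard error, SE, 0.0950; adjusted p = 0.0129). It passed the threshold in all 10 fits that each left out 1 liver, with adjusted p-values from 0.0115 to 0.0373, and under the 7 other tools, factors and filters.

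Atg5, the partner that carries ATG12 and binds ATG16L1, had values of the opposite sign. NCACS livers held 46.4, 38.8, 43.1, 51.7 and 51.4 CPM and CACS livers 37.3, 35.0, 36.5, 37.0 and 36.8 CPM. The CACS livers lay close together and all were below the lowest NCACS liver, mouse 12. Its log2 fold change of -0.34 (SE 0.0907) did not pass the threshold (adjusted p = 0.0583), although it did in DESeq2 (adjusted p = 0.0105). Per liver, the ratio of Atg16l1 to Atg5 in CPM was between 0.772 and 1.10 in NCACS and between 1.61 and 2.08 in CACS mice. This ratio was formed after both values were seen, is given without a test and is not scaled by gene length. The order per kb of exon rests on annotated exon lengths of 9628 bases for Atg16l1 and 2352 for Atg5. On that scale Atg16l1 was below Atg5 in every liver. It was at 4.12 to 4.79 against 16.5 to 22.0 CPM per kb in NCACS and 5.84 to 7.96 against 14.9 to 15.8 in CACS livers. Atg12, the third part of the complex, was at 29.2, 25.0, 28.2, 32.1 and 34.5 CPM in NCACS livers, against 27.5, 27.2, 27.7, 24.2 and 24.8 CPM in CACS livers, with overlapping groups (log2 fold change -0.18, adjusted p = 0.310).

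The other conjugation genes showed smaller values. Atg7, the E1-like enzyme of both conjugation systems, had 43.2, 39.0, 44.1, 47.6 and 48.3 CPM in NCACS livers, against 37.2, 47.1, 36.0, 41.5 and 37.5 CPM in CACS livers (log2 fold change -0.16, adjusted p = 0.371), and CACS mouse 17, at 47.1 CPM, stood among the NCACS livers. For Atg3 and Atg10, which act as E2-like enzymes, and the LC3-processing protease Atg4b, the log2 fold changes were 0.10, -0.08 and 0.04. Of the 7 genes of this step, 1 passed the test (14.3%, beside 3.80% of all genes). In 2 the groups did not overlap (28.6%, beside 7.07% of all genes). With so few genes, 1 gene shifts these shares widely.

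The promoter of Atg5 is shown because it is the one of these 2 members with a promoter in the RefSeq table used. It spans chr10:44268089-44268388 of GRCm38.p6 on the forward strand, and the capitals mark CACGTG, the palindromic E-box core read by TFEB and other basic helix-loop-helix factors, which starts 14 bases before the RefSeq start site.
Atg5: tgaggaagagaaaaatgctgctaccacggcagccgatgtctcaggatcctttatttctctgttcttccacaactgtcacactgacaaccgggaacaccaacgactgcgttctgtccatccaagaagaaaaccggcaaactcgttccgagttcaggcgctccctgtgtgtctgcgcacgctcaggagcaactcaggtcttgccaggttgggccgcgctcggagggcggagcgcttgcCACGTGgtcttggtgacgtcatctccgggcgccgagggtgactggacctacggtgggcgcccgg

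Of the kinase complex that starts autophagy, no gene of 5 passed the test. Ulk2, a kinase that shares the role of ULK1, had 82.1, 77.1, 77.8, 48.4 and 104 CPM in NCACS livers, against 55.5, 45.5, 67.6, 53.2 and 38.4 CPM in CACS livers. NCACS mouse 14 lay inside the CACS range and the other 4 NCACS livers above it. The log2 fold change was -0.58 (SE 0.193, adjusted p = 0.113). Ulk1 itself had 92.4 ± 16.6 CPM in NCACS livers, against 89.7 ± 13.8 CPM in CACS livers (log2 fold change -0.04, 95% interval -0.36 to 0.27). Its partners Rb1cc1, Atg13 and Atg101, which form the rest of the complex, had values of -0.04, -0.10 and -0.07.

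Of 3 nucleation genes none passed the test. Becn1, which codes for Beclin 1, had the one positive value. Its level was 38.9, 37.4, 35.3, 36.3 and 37.9 CPM in NCACS livers, against 42.5, 49.8, 45.7, 44.5 and 42.0 CPM in CACS livers, so the groups did not overlap. The difference was small, with a log2 fold change of 0.27 (SE 0.0750), and missed the threshold (adjusted p = 0.0645), as it did in each of the 10 fits without 1 liver (0.0862 to 0.117). DESeq2 gave an adjusted p of 0.0107. The exons of Becn1 overlap those of Cntd1 on the opposite strand, and the strand setting of the counting is not given in the sources used here. Pik3c3, the lipid kinase of the complex, and Atg14, the subunit that directs it to autophagy, had log2 fold changes of -0.11 and -0.10.

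None of the membrane supply genes passed the test. The lipid scramblase Atg9a, the lipid transfer proteins Atg2a and Atg2b, and Wipi1 and Wipi2, which read the phosphoinositide mark, had log2 fold changes between -0.16 and 0.19, and none had an unadjusted p-value under 0.05. For all 5 the 95% interval lay within 1.5-fold. Wipi2 was the most closely bounded, at 88.4 ± 5.59 CPM in NCACS livers, against 87.0 ± 5.76 CPM in CACS livers (log2 fold change -0.02, 95% interval -0.20 to 0.15).

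No ATG8 family gene, whose products coat the autophagosome and hold its cargo, passed the test. Map1lc3b, the usual LC3 marker, was at 105 ± 9.74 CPM in NCACS livers, against 113 ± 11.1 CPM in CACS livers (log2 fold change 0.10, 95% interval -0.11 to 0.32). Gabarapl1 was widely spread within the groups, from 302 to 611 CPM in NCACS livers and from 304 to 529 CPM in CACS livers. Its log2 fold change was -0.31 (adjusted p = 0.409), with NCACS mice 14 and 15 highest and NCACS mouse 13 lowest of all. Map1lc3a, Gabarap and Gabarapl2 had values of 0.05, -0.04 and -0.13.

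Among cargo receptors, Bnip3 had the largest log2 fold change of all 44 members. It codes for a mitochondrial outer membrane protein that binds LC3 and is a known target of hypoxia and fasting signals. NCACS livers had 167, 145, 86.9, 152 and 88.9 CPM and CACS livers 265, 161, 228, 195 and 201 CPM. The groups overlapped only through CACS mouse 17, at 161 CPM, and NCACS mouse 11, at 167 CPM, and NCACS mice 13 and 15 were well below the rest. The log2 fold change of 0.72 (SE 0.205) missed the threshold (adjusted p = 0.0727) and stayed between 0.60 and 0.83 when each liver was left out. In DESeq2 it passed, with an adjusted p of 0.0148. The related mitophagy receptor Bnip3l had a value of 0.11, and the receptors for ubiquitinated cargo, Sqstm1 (p62) and Nbr1, had -0.21 and -0.11. Sqstm1 was spread from 327 to 489 CPM in NCACS livers and from 300 to 411 CPM in CACS livers.

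The promoter of Bnip3 is shown for the same E-box core, in capitals, which starts 108 bases before the start site. It spans chr7:138909457-138909756 of GRCm38.p6 on the reverse strand and is written in the direction of transcription.
Bnip3: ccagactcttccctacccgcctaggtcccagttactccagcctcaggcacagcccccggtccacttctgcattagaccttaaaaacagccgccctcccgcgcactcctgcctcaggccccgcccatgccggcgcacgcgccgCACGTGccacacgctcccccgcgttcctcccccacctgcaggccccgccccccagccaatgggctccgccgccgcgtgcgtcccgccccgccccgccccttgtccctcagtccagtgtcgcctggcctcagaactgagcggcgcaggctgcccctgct

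**Figure D3:**
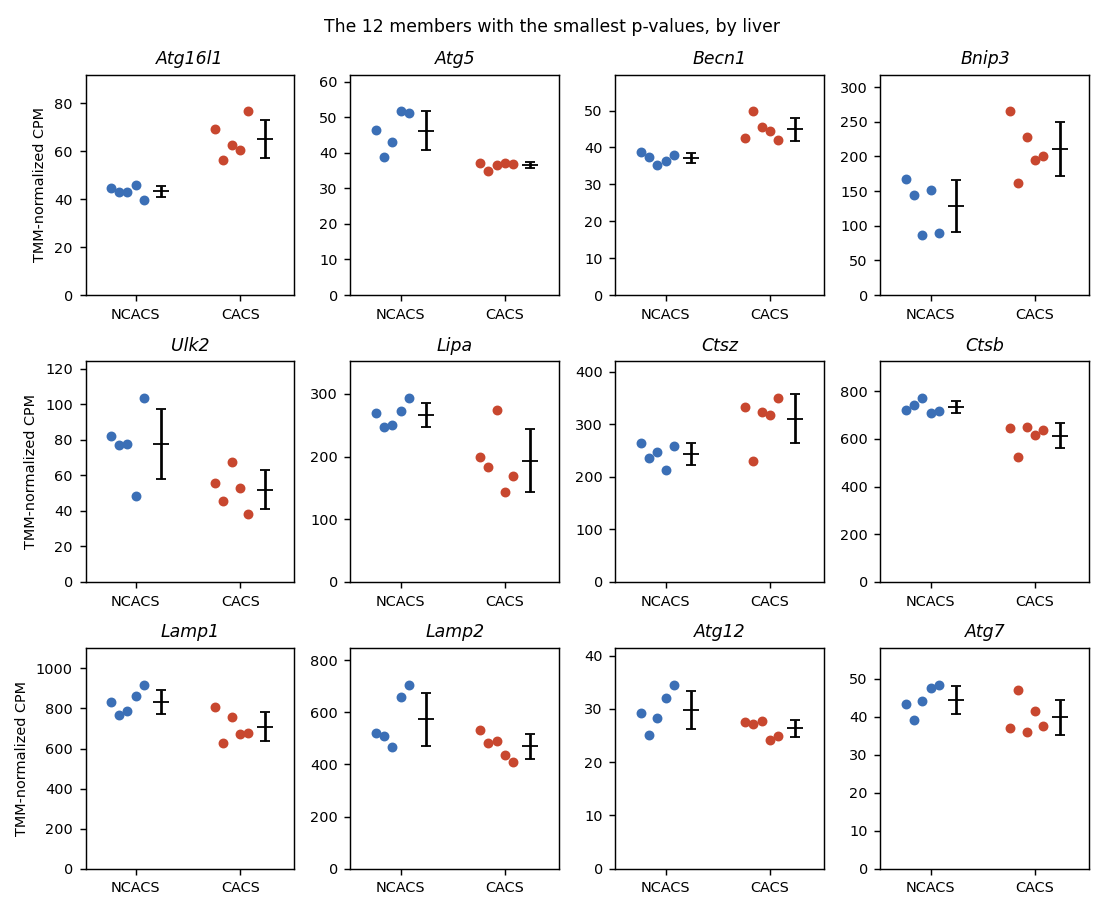
TMM-normalized CPM (y axis, from 0) of the 12 members with the smallest p-values in each of the 5 NCACS (blue) and 5 CACS livers (red), with the group mean and SD in black. Atg16l1, Atg5, Becn1 and Ctsb separate the groups, and the other 8 overlap.

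Tfeb and Tfe3 code for the transcription factors that raise lysosomal and autophagy genes when mTORC1 is low. Tfeb was at 10.4, 10.7, 10.7, 5.63 and 5.10 CPM in NCACS livers, against 9.59, 7.69, 9.43, 11.9 and 12.7 CPM in CACS livers. NCACS mice 14 and 15 were lowest and the other 3 NCACS livers lay within the CACS range. The log2 fold change was 0.27 with a wide 95% interval, from -0.24 to 0.78. Tfe3 had a value of 0.03.

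The E-box that these factors read was searched in the promoters of 35 members on both strands. Each promoter held 300 bases around a RefSeq start site, and sites farther away were not searched. CACGTG was present in 11 of the 35 members (31.4%), beside 8.09% of the 27025 genes with a promoter in the table. Those 27025 also include genes outside the 14143 tested here, whereas every member was tested, so the sets are not alike. The 11 members were Atg14, Atg3, Atg5, Atg7, Bnip3, Ctsa, Ctsd, Ctsl, Gaa, Lamp1 and Mcoln1. Their log2 fold changes ran from -0.34 to 0.72 with a median of 0.00, 6 higher and 5 lower, whereas the 24 members without it had a median of -0.06. The longer TCACGTGA, which contains CACGTG, was in 4 members (11.4%, beside 1.12% of genes), and all 4 had small log2 fold changes, from -0.18 to 0.14. The 10-base CLEAR palindrome built on it was in none of the 35, beside 0.370% of genes, nor was the forkhead motif TGTTTAC, beside 4.05%. The stretches around TCACGTGA, in capitals, are printed with their places. They were chosen for holding these bases, so the shared site follows from that choice. The stretch of Ctsa holds 2 matches.
Ctsa, chr2:164833742-164833785, forward strand: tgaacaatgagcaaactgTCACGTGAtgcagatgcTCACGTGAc
Ctsd, chr7:142387901-142387944, reverse strand: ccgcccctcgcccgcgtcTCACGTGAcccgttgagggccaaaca
Mcoln1, chr8:3500455-3500498, forward strand: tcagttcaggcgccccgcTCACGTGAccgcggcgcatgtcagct
Atg3, chr16:45158739-45158782, forward strand: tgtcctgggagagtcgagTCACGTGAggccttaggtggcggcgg

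Of the lysosomal membrane genes, none passed the test. Lamp1 had 831, 766, 787, 863 and 917 CPM in NCACS livers, against 808, 626, 756, 675 and 677 CPM in CACS livers. The 3 lowest livers with regard to Lamp1 were CACS mice 17, 19 and 20, and the remaining 2 CACS livers lay next to or within the NCACS range (log2 fold change -0.23, SE 0.111, adjusted p = 0.248). Lamp2, its relative needed for fusion of autophagosomes with lysosomes, had 521, 509, 468, 660 and 705 CPM in NCACS livers, against 533, 481, 491, 438 and 410 CPM in CACS livers. NCACS mice 14 and 15 stood above all others (log2 fold change -0.28, SE 0.138, adjusted p = 0.262). Npc1, a cholesterol exporter, and Mcoln1, a calcium channel, had values of -0.13 and 0.06.

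Enzymes and carriers of the lumen had values of both signs, with 5 positive and 4 negative log2 fold changes among 9 and none past the threshold. Ctsb, the cysteine protease cathepsin B, had 722, 742, 771, 707 and 717 CPM in NCACS livers, against 644, 524, 649, 618 and 637 CPM in CACS livers, without overlap. Its log2 fold change was -0.25 (SE 0.101, adjusted p = 0.172, and 0.0297 in DESeq2). CACS mouse 17 was the lowest by a wide margin, and exons of Ctsb overlap Fdft1 on the opposite strand.

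Lipa, the acid lipase that frees fatty acids and cholesterol from lysosomal lipid, had 270, 247, 250, 274 and 293 CPM in NCACS livers, against 199, 183, 275, 143 and 169 CPM in CACS livers. CACS mouse 18 was level with the NCACS livers and the other 4 CACS livers were below all of them. The log2 fold change was -0.46 (SE 0.156, adjusted p = 0.117), and it passed the threshold without CACS mouse 18 (adjusted p = 0.0346). Ctsz, cathepsin Z, had 264, 235, 247, 213 and 258 CPM in NCACS livers, against 332, 231, 323, 318 and 350 CPM in CACS livers. CACS mouse 17 alone lay inside the NCACS range, and the log2 fold change was 0.35 (SE 0.123, adjusted p = 0.128, and 0.0428 without that mouse).

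Ctsl, cathepsin L, was the most variable of the 44 within groups. It ran from 213 to 541 CPM in NCACS livers and from 215 to 523 CPM in CACS livers, a 2.54-fold and a 2.43-fold spread. NCACS mice 14 and 15 and CACS mice 17 and 20 were the high livers, and the log2 fold change of 0.02 had a 95% interval from -0.64 to 0.69. The aspartic protease Ctsd had a value of -0.18, the carboxypeptidase Ctsa 0.14, and the glycogen-degrading Gaa 0.00. For the ganglioside-degrading Hexa it was -0.14 and for the cholesterol carrier Npc2 0.02.

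Many lysosomal genes are abundant in macrophages, so markers of Kupffer cells, the resident macrophages of the liver, are given beside them. Of 12 macrophage markers 11 had a negative log2 fold change (median -0.39), and their summed level was 240 to 425 CPM in NCACS livers, against 160 to 328 CPM in CACS livers. Cd5l, a secreted macrophage protein, fell by 0.90 on the log2 scale (adjusted p = 0.0374). It passed the threshold in 2 of the 10 fits that left out 1 liver, with adjusted p-values up to 0.0862. The Kupffer-specific Clec4f had 74.2 ± 12.5 and 68.6 ± 18.2 CPM (log2 fold change -0.11, adjusted p = 0.782), the smallest of the negative values. Vsig4 and Timd4 had -0.41 and -0.80 (adjusted p = 0.249 and 0.142), and Adgre1 and Marco -0.96 and -1.22 (adjusted p = 0.0583 and 0.0968). Cd163, the one positive marker, had 0.25 (adjusted p = 0.658). The lysosomal members were of both signs. Log2 fold changes were positive for 5 and negative for 4 lumen members, and positive for 1 and negative for 3 membrane members. Ctsb, Lipa and the Lamp genes had negative values and Ctsz a positive one, of 0.35. The part of macrophages in any of these values was not tested, and in bulk RNA fewer cells and less RNA per cell cannot be told apart. Summed monocyte markers were 44.4 to 135 CPM in NCACS livers, against 29.8 to 66.2 CPM in CACS livers, and neutrophil markers 1.48 to 12.3 and 1.01 to 2.47 CPM, with Ly6g and Mpo under 10 counts in every liver. For lymphocytes the sums were 1.36 to 3.40 and 0.901 to 1.95 CPM, for sinusoidal endothelium 120 to 162 and 152 to 198 CPM, for stellate cells and fibroblasts 123 to 191 and 143 to 230 CPM, and for cholangiocytes 4.97 to 10.8 and 3.30 to 7.27 CPM. Erythroid markers summed to 89.3 to 277 and 146 to 218 CPM, and lung epithelial markers to 0.0890 to 4.16 and 0 to 4.47 CPM. Hepatocyte markers summed to 68214 to 112974 CPM in NCACS livers, against 103556 to 132027 CPM in CACS livers. Most of that sum is Alb, the albumin gene (68587 and 92841 CPM on average, adjusted p = 0.290). Of the 6 hepatocyte markers 4 had a positive and 2 a negative log2 fold change, at 0.44 for Alb, 0.35 for Apoa1, 0.14 for Asgr1, -0.28 for Apob and -0.06 for Ttr, none of them past the threshold. The sixth, Hnf4a, a transcription factor of hepatocyte identity, rose by 0.50 on the log2 scale (adjusted p = 0.0435). It passed the threshold in only 1 of the 10 fits that left out 1 liver, with adjusted p-values up to 0.0974.

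The values of single livers crossed the roles. NCACS mouse 15 had the highest level of 12 of the 44 members, among them Ulk2, Lamp1, Lamp2, Lipa, Gabarapl1 and Ctsl, and CACS mouse 20 had the lowest level of 10, among them Ulk1, Ulk2, Pik3c3, Sqstm1 and Lamp2. Without NCACS mouse 15, Atg16l1 was still the only member past the threshold, and the members' median log2 fold change was -0.02.

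**Figure D4:**
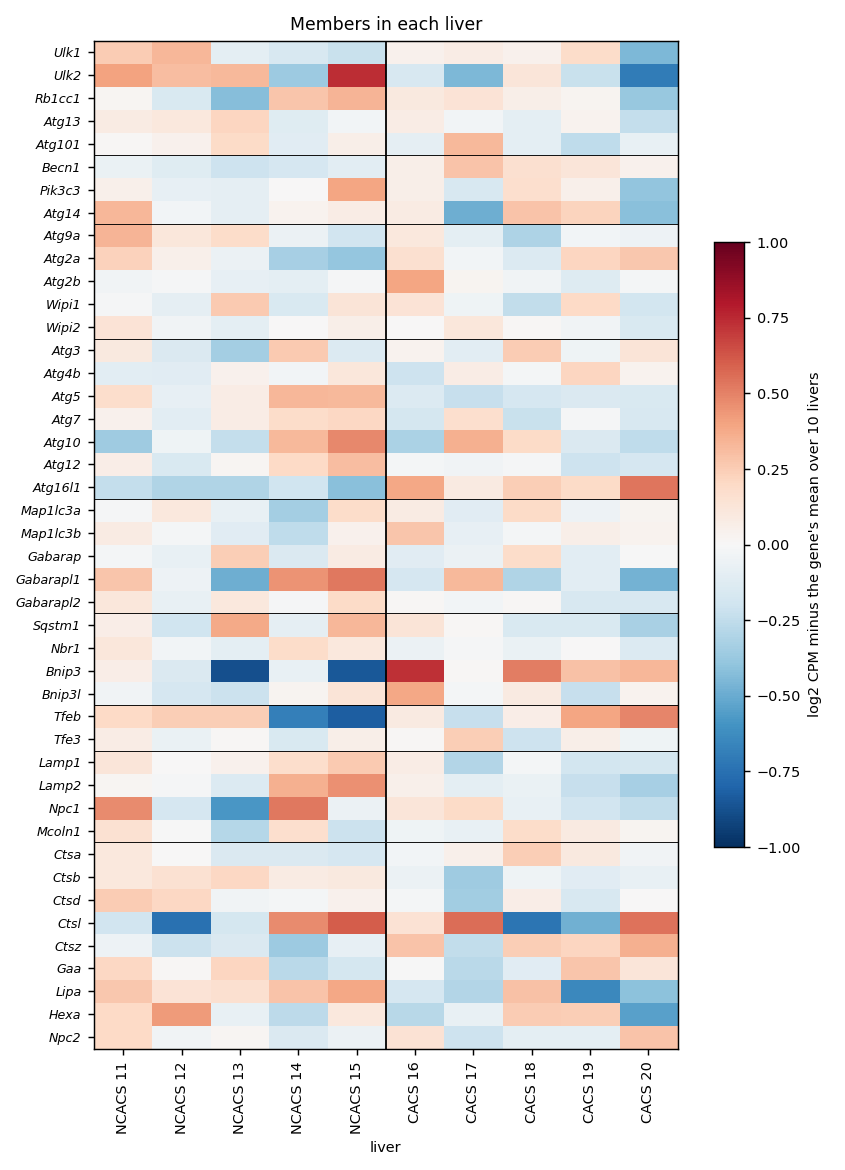
Level of each member (rows, by role) in each liver (columns, NCACS left and CACS right) as log2 CPM minus the gene's mean over the 10 livers, from blue (low) to red (high). Atg16l1 and Becn1 are low in all NCACS and high in all CACS columns, Atg5 and Ctsb the reverse or nearly so, and Ctsl, Gabarapl1 and Tfeb differ as much within groups as between them.

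A further 123 genes of the same pathway were listed by role. Of the 122 tested, 5 passed the test (4.10%, beside 3.80% of all genes), 3 higher and 2 lower, with a median log2 fold change of -0.02. None of the 16 proton pump (V-ATPase) genes, of 21 further autophagy machinery genes or of 10 further receptors passed. The 5 were 3 of 47 further lysosomal genes (6.38%) and 2 of 28 upstream regulators (7.14%), beside 3.80% of all genes. With so few genes past the threshold, these counts do not set the roles apart from each other or from all genes. At an unadjusted p-value under 0.05 there were 28 of the 122 (23.0%, beside 21.6% of all genes), and in 16 (13.1%, beside 7.07%) the groups did not overlap. The further lysosomal genes held most of these, with 17 of 47 at an unadjusted p-value under 0.05 (36.2%), 6 higher and 11 lower, and 9 of 47 without overlap (19.1%). Their median log2 fold change was -0.09. All 16 V-ATPase genes had their 95% interval within 1.5-fold.

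The 5 genes were 2 lysosomal enzymes, 1 sorting receptor and 2 regulators. Idua, which degrades glycosaminoglycans, rose from 8.58 ± 0.573 to 12.9 ± 1.94 CPM (log2 fold change 0.58, adjusted p = 0.0254), and the mannosidase Man2b1 from 84.2 ± 11.4 to 116 ± 12.6 CPM (0.46, adjusted p = 0.0497). Igf2r, the mannose 6-phosphate receptor that carries enzymes to lysosomes, fell from 54.7 ± 4.82 to 40.0 ± 4.73 CPM (-0.45, adjusted p = 0.0359). Foxo1, a transcription factor active when insulin is low, rose from 36.4 ± 6.18 to 54.0 ± 5.97 CPM (0.57, adjusted p = 0.0375). Sesn3, a stress protein that restrains mTORC1, fell from 4.17 ± 0.554 to 2.39 ± 0.614 CPM (-0.80, adjusted p = 0.0459). Its relatives had values of both signs, -0.35 for Sesn1 (adjusted p = 0.0567) and 0.29 for Sesn2 (adjusted p = 0.313). Each of the 5 missed the threshold in at least 5 of the 10 fits that left out 1 liver. Man2b1 also missed it with RLE factors (adjusted p = 0.0512), upper-quartile factors (0.0546), raw library totals (0.0531) and no filter (0.0703), Sesn3 with raw library totals (0.0643) and no filter (0.0631), and Igf2r and Foxo1 with raw library totals (0.0588 and 0.0531).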

How the data were processed

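Livers of 5 NCACS and 5 CACS mice were profiled by RNA-seq. Per the labels and the study's methods, stranded mRNA libraries were sequenced from 1 end, STAR (2.4.1d) placed the reads on GRCm38, HTSeq (0.6.1) counted them per gene, and the authors deposited raw counts without normalization. The annotation release and strand setting are not given in the sources used here, and 13 members share exon sequence with a gene on the opposite strand. Symbols, places and exon lengths came from GENCODE M21, which lacked 1081 of the 43629 identifiers. Promoters were those of RefSeq on GRCm38.p6.

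The deposited counts were tested with edgeR 4.0.16 in R 4.3.3 (filterByExpr, TMM factors, quasi-likelihood F test, Benjamini-Hochberg adjustment over all 14143 genes tested, threshold 0.05). Adjusted p-values are from this fit unless another tool is named. CPM were computed on TMM-scaled library sizes, and standard errors are the log2 fold change over the square root of F. No 2 livers of a group agreed within sampling noise (smallest chi-square per degree of freedom 51.3). The scripts were tested on simulated data. The alternatives were DESeq2 1.42.0, voom in limma 3.58.1, other scaling (RLE, upper quartile, unscaled totals), other filters (none, or a minimum of 10 counts in each liver) and fits without each liver in turn. All 44 members could be named; values in every liver were set for the 12 members with the smallest p-values, and of the other pathway genes those past the threshold were named. Sesn1 and Sesn2, marker genes and livers singled out, and Gabarapl1, Tfeb and Ctsl as variable members, were picked with their values in view. The members and lists were chosen with earlier results of these data known. The study lists a batch correction for its liver RNA-seq, which also drew on an earlier set of livers not used here. The labels of the livers used here give no batch, so none was applied. Protein sequences were not used here. The full genotype of the model is not reported here.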

Additional observations from a re-analysis of the deposited data

Results flagged for a closer look

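Dixon's test for a liver that stands apart was run 98 times on the 5 livers of one gene in one group, and 7 times the gap over the range, both taken on log2 CPM, was above the 95% critical value of 0.71. By chance about 1 in 20 would do so. In CACS mouse 20, Ulk1 (gap over range 0.776, 66.0 CPM against 92.7 in the next liver) and Rb1cc1 (0.787, 26.7 against 35.3 CPM) were low. In CACS mouse 17, Ctsb (0.768, 524 against 618 CPM) and Ctsz (0.766, 231 against 318 CPM) were low. CACS mouse 17 was also lowest of all 10 livers for the macrophage markers Clec4f (38.0 CPM), Cd5l (27.4 CPM) and Csf1r (13.3 CPM). The same held for Vsig4, Timd4, Adgre1, C1qa, C1qb and C1qc, whereas for Marco, Cd163 and Cd68 another liver was lower. Whether the low Ctsb and Ctsz values go with fewer macrophages was not tested. Pik3c3 was high in NCACS mouse 15 (0.715, 27.4 against 21.5 CPM). Sesn3 was low in NCACS mouse 12 (0.719, 3.24 against 4.18 CPM, and 0.682 on the CPM scale, which is under the critical value) and Foxo1 in NCACS mouse 13 (0.792, 25.6 against 36.9 CPM). The other 6 were above the critical value on the CPM scale too, at 0.728 to 0.756.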

How the results depend on the processing

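No paired analysis was possible because NCACS and CACS mice carry different numbers. Causes of the changes given here were not tested. DESeq2 gave 1386 genes past the threshold, 7 members (3 higher, namely Atg16l1, Becn1 and Bnip3, and 4 lower, namely Atg5, Ctsb, Lipa and Ulk2) and 15 other pathway genes. Upper-quartile factors gave 2 members, 1 of them lower (Atg5, adjusted p = 0.0476). Other pathway genes past the threshold numbered 1 with raw library totals (Idua), 3 with no filter (without Sesn3 and Man2b1) and 4 with RLE or upper-quartile factors (without Man2b1). Across the 10 fits that each left out 1 liver, which have fewer samples, all genes past the threshold ranged from 178 (without NCACS mouse 11) to 519 (without CACS mouse 17), members from 1 to 2, members higher from 1 to 2 (Ctsz without CACS mouse 17) and lower from 0 to 1 (Atg5 without NCACS mouse 12, Lipa without CACS mouse 18), and other pathway genes from 0 (without NCACS mouse 11, 12 or 14 or CACS mouse 16 or 19) to 6 (without CACS mouse 17). Counts were also 281, 301, 208, 285, 192, 206 and 228 genes without NCACS mice 12, 13, 14 and 15 and CACS mice 16, 19 and 20. The members' median log2 fold change stayed between -0.07 and -0.02. Of the 343 values of single genes under the other tools, factors and filters, 325 kept direction and call and 3 changed sign, all of Gaa (-0.00355 in DESeq2, -0.00356 with RLE and -0.00612 with upper-quartile factors). With 1 liver left out, 14 genes changed sign at least once, with ranges of -0.0996 to 0.0498 for Ulk1, -0.138 to 0.0485 for Rb1cc1, -0.186 to 0.00108 for Atg14, -0.112 to 0.00806 for Wipi1, -0.0517 to 0.012 for Wipi2, -0.0068 to 0.0959 for Atg4b, -0.188 to 0.0435 for Atg10, -0.0218 to 0.106 for Map1lc3a, -0.091 to 0.0244 for Gabarap, -0.0275 to 0.0838 for Tfe3, -0.256 to 0.00479 for Npc1, -0.125 to 0.195 for Ctsl, -0.0682 to 0.0709 for Gaa and -0.0587 to 0.0718 for Npc2. Among the members, counting error limits Atg10 and Tfeb most, with at least 101 and 165 counts per liver.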
